A study of Homo sapiens with 16 samples.

Results

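The genes described here are those of glycolysis and the pentose phosphate pathway, from glucose uptake to pyruvate and from 6-phosphogluconate to the sugar phosphates that return to glycolysis. They were chosen from a list of 31 gene symbols, and 30 of the 31 matched a symbol among the 35106 gene rows of the count table. The remaining one, PGLS, has its GENCODE 29 identifier, ENSG00000130313, on a row whose symbol is AC010618.1, so PGLS is described apart and enters no count of members. RNA was sequenced from 2 established human breast cancer lines: MDA-MB-231, a mesenchymal-like line without ERBB2 amplification, and SKBR3, an ERBB2-amplified line. Both derive from pleural effusions of breast adenocarcinoma, and they were grown in high-glucose medium with serum at passage 25 (MDA-MB-231) and 10 (SKBR3). In each line, cells exposed to 500 nM MitoQ for 48 h were compared with cells labelled control, for which the labels name no vehicle. MitoQ is ubiquinone linked to a triphenylphosphonium cation, which carries it into mitochondria. MDA-MB-231 had 5 libraries per condition and SKBR3 had 3. Each condition is a single line, and the labels do not say whether replicates were separate cultures, so p-values measure the spread between these libraries, which may be technical.

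Glycolysis splits glucose into pyruvate in the cytosol. Hexokinases trap glucose as glucose 6-phosphate, phosphofructokinase commits it to breakdown, and the lower part of the pathway, from glyceraldehyde-3-phosphate dehydrogenase to pyruvate kinase, yields ATP and NADH. The pentose phosphate pathway starts from glucose 6-phosphate: its oxidative branch makes NADPH and pentose phosphates, and its reversible non-oxidative branch, run by transketolase and transaldolase, links pentoses back to glycolysis. Many tumour cells use glycolysis heavily even with oxygen present, and several of the genes are textbook targets of hypoxia-inducible factor (HIF), which binds an A/GCGTG core, and of MYC, which binds the E-box CACGTG.

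Promoters are shown for 6 members whose values are given library by library below. Each sequence is the 250 bases before a RefSeq transcription start on GRCh38.p14, 5′ to 3′ on the strand of the gene, with every ACGTG and GCGTG, on either strand, in capitals (CACGT and CACGC are these motifs on the other strand). The first 4 fell in MDA-MB-231 and hold the motif:
PGK1 (chrX:78103998-78104247, plus strand): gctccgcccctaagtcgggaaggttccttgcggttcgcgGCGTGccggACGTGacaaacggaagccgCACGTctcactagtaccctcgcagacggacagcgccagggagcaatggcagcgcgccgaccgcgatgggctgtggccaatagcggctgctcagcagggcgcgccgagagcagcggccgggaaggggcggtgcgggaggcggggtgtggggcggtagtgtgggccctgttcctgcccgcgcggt
ALDOC (chr17:28576896-28577145, minus strand): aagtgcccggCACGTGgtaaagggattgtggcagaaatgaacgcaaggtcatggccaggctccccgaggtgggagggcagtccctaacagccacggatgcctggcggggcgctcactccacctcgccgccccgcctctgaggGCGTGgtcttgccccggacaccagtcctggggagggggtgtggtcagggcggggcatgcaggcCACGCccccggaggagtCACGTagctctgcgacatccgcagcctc
GPI (chr19:34364742-34364991, plus strand): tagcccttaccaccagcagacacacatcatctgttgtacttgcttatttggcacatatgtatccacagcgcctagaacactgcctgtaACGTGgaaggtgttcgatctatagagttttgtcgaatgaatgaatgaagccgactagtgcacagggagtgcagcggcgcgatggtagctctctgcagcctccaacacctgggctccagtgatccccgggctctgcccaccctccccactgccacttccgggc
PFKFB4 (chr3:48556804-48557053, minus strand): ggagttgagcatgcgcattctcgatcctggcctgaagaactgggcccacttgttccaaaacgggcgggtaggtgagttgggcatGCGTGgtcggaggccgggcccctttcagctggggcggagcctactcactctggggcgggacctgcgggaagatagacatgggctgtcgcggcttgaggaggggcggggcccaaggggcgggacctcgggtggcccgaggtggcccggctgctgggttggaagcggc
Matches in PGK1 began 211, 202 and 183 bases before the start, and the single matches in GPI and PFKFB4 began 162 and 166 bases before it. ALDOC held 5, of which the pair farthest from the start overlap as 1 palindromic CACGTG. The next 2 also fell in MDA-MB-231, and hold neither motif:
PGAM1 (chr10:97427568-97427817, plus strand): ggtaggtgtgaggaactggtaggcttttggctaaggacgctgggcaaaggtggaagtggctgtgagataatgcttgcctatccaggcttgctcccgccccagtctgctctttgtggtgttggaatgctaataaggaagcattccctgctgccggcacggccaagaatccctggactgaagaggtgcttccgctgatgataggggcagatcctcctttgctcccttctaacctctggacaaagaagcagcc
TKT (chr3:53256023-53256272, minus strand): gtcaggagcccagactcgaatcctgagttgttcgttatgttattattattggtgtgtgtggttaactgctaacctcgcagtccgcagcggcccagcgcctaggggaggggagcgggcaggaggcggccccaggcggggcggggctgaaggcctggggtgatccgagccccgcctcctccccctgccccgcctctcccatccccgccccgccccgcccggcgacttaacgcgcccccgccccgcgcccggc

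RefSeq promoters were matched to 29 of the 31 listed genes, PGLS included, and not to SLC2A3 or PFKFB2. A gene was counted when any of its promoters held the motif, so genes with several starts had more chances to match. HK1 and PFKM, for example, also have promoters without ACGTG or GCGTG. Counted so, ACGTG or GCGTG, on either strand, was found in 75.9% of these 29, against 47.4% of the 27305 genes with a promoter. ACGTG alone was found in 51.7% against 21.7%, GCGTG alone in 55.2% against 36.2%, and CACGTG, which contains ACGTG, in 20.7% against 7.73%. TGATGNAA, the core of the sites that ATF4 dimers bind, was found in 3.45% against 3.89%, and the 1 listed gene was HK1. Among the 19 members that fell in MDA-MB-231, all with a promoter, 14 held ACGTG or GCGTG. Of the 11 others, 9 had a promoter and 8 of these held it. These are matches of letters in a fixed window, and no binding was measured.

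The libraries held 14723152 to 29294865 counts, so that 3 counts correspond to 0.1 to 0.2 CPM (counts scaled to a common library total). Levels below are CPM with TMM normalisation within each line, unless stated otherwise. Line markers matched the labels: ERBB2 was at 54.2 CPM in MDA-MB-231 controls and 5327 CPM in SKBR3 controls, and the mesenchymal gene VIM at 3409 and 0.179 CPM, all on the scale of the 16 libraries. Of the leukocyte markers, PTPRC and CD3E were below 0.5 CPM and CD14 below 1 CPM in every group mean. CD68, a lysosomal protein abundant in macrophages, fell from 42.6 to 35.8 CPM in MDA-MB-231 and rose from 5.72 to 8.64 CPM in SKBR3 (edgeR adjusted p = 0.00424 and 0.00211), the 1 leukocyte marker called in each line. Of the 5 MDA-MB-231 markers, 2 rose in SKBR3 with MitoQ: CD44 from 17 to 37.2 CPM and CAV1 from 2.97 to 4.38 CPM (edgeR adjusted p = 2.01e-07 and 0.0109). MSN and AXL were not called there, and VIM was too low to test. Over all genes, 13.8% were called higher in SKBR3, and 29.9% higher and 27.6% lower in MDA-MB-231. Within MDA-MB-231, 2 of its 5 markers rose and 1 fell. Of SKBR3 markers, 2 of 4 tested rose in MDA-MB-231 and 1 of 5 in SKBR3. Of fibroblast and endothelial markers, 1 of 5 tested fell in MDA-MB-231 and 0 of 5 were called in SKBR3. Between controls, 3 of 6 were higher and 1 lower in SKBR3, where 42% and 44.4% of all genes were. The part of these markers in the results was not tested. In bulk RNA, fewer cells with a transcript and less of it per cell cannot be told apart.

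In MDA-MB-231, most of the pathway was lower with MitoQ. The edgeR quasi-likelihood test with Benjamini-Hochberg adjustment over all genes called 19 of 30 members lower and 5 higher, and 6 were not called. Over all 15304 genes tested, 27.6% were called lower and 29.9% higher. The median log2 fold change of the members was -0.31, and that of all genes 0.01. The members together took 1.22% to 1.33% of the counts of each control library and 1.04% to 1.16% of each MitoQ library, ranges that do not overlap.

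In SKBR3, the changes were fewer and smaller. Of 29 members tested, 6 were called higher and 7 lower (edgeR), where 13.8% of 15026 genes were called higher and 14.1% lower, and the members' median log2 fold change was -0.05. ENO2 was too low to test. The members took 1.15% to 1.19% of control and 1.11% to 1.16% of MitoQ libraries. All SKBR3 member calls were of changes below 1.5-fold, and none passed a test against a 1.2-fold change, where 17 of the MDA-MB-231 calls did (all but HK2, PFKL, PFKFB2, GAPDH, ENO1, PKM and TALDO1). A single edgeR fit for both lines ended the SKBR3 calls of SLC2A1, PGM2, ALDOC and PGK1, DESeq2 those of SLC2A3, PGM2, ALDOC and PGK1, and leaving out MitoQ library 2 reduced the calls from 13 to 8.

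**Figure D1:**
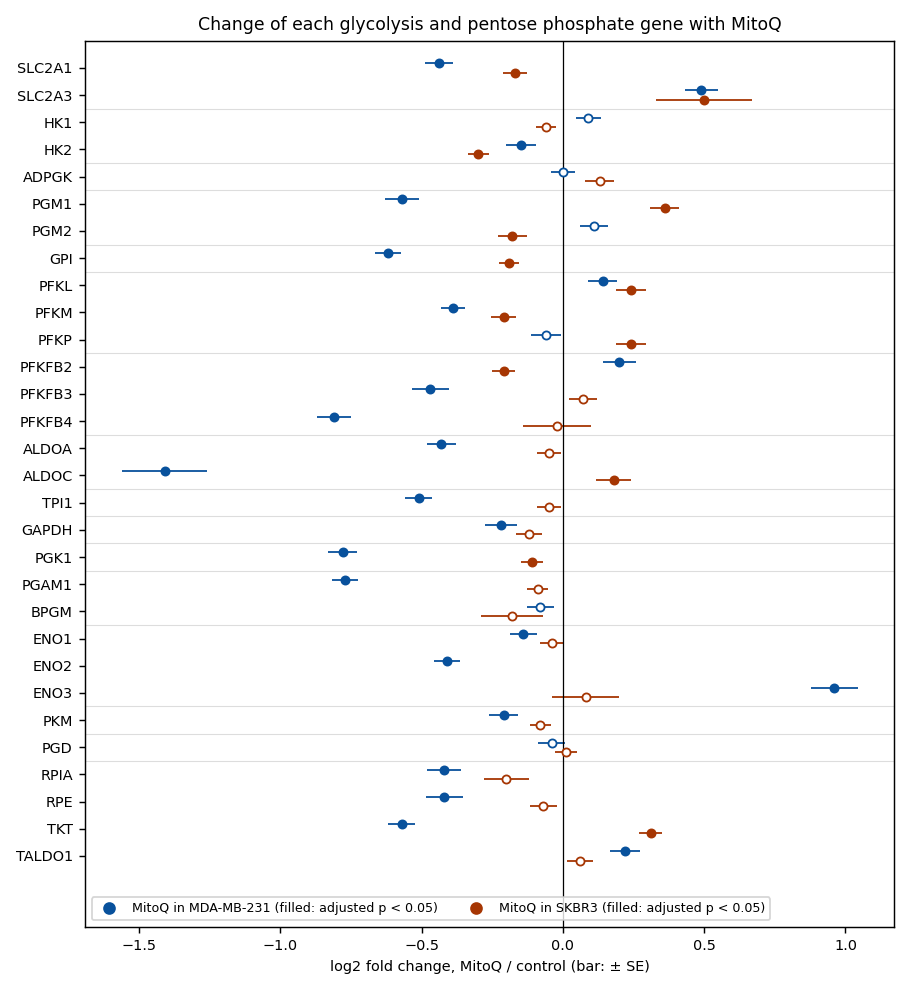
Log2 fold change (MitoQ over control, x axis) of each of the 30 members (y axis, ordered by step) in MDA-MB-231 (blue, n = 5 and 5) and SKBR3 (orange, n = 3 and 3), with bars of 1 SE; filled points passed an edgeR adjusted p of 0.05, and ENO2 has no SKBR3 point. In MDA-MB-231, 19 filled points lie left of 0, and PGM1, TKT and ALDOC lie on opposite sides of 0 in the 2 lines.

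The effect of MitoQ differed between the lines for 18 members. The interaction term, the SKBR3 log2 fold change minus that of MDA-MB-231 in 1 edgeR fit over all 16 libraries, was called above 0 for 15 and below 0 for 3, where 19.1% and 14.9% of 17094 genes were called above and below. With plain library totals in place of TMM the split was 13 above and 6 below, and the calls of PFKM and ENO2 were lost. Against a 1.2-fold difference, 10 of the 18 were called. PGM1, TKT and ALDOC fell in MDA-MB-231 and rose in SKBR3, with interaction terms of 0.98, 0.91 and 1.63. PFKFB2 did the opposite (-0.37). In both lines, 5 members fell (SLC2A1, HK2, GPI, PFKM and PGK1) and 2 rose (SLC2A3 and PFKL). The share of all genes called alike in both lines was not computed, so these counts have no background beside them. The other 10 that fell in MDA-MB-231 and were tested in SKBR3 were not called there. For 6 of these (PFKFB3, PFKFB4, ALDOA, TPI1, PGAM1 and RPE) the interaction was called. For GAPDH, ENO1, PKM and RPIA it was not, so a difference between the lines is not shown for them.

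Glucose enters through the SLC2A transporters. SLC2A1, encoding the basal transporter GLUT1, fell from 353 ± 18.2 to 260 ± 16.2 CPM in MDA-MB-231 (SD, n = 5 and 5) and from 355 ± 15.1 to 316 ± 11.1 CPM in SKBR3 (SD, n = 3 and 3). The log2 fold changes were -0.44 and -0.17 (edgeR adjusted p = 4.69e-07 and 0.00688), and the interaction was 0.31 (0.0029). Its SKBR3 call was lost without MitoQ library 1 or 2 (adjusted p = 0.0561 and 0.0892). SLC2A3 (chr12:7919230-7936275, minus strand, GRCh38), encoding the high-affinity transporter GLUT3, moved the other way. In MDA-MB-231 it was at 45.5, 46.1, 45.9, 40.7 and 38.6 CPM in controls and 60.5, 55.0, 64.0, 63.5 and 61.3 CPM with MitoQ. The groups did not overlap, and the log2 fold change was 0.49 ± 0.059 (SE, edgeR adjusted p = 9.67e-07). SKBR3 controls were at 2.13, 2.64 and 2.33 CPM and SKBR3 MitoQ libraries at 2.91, 3.66 and 3.37 CPM (0.50 ± 0.17, edgeR adjusted p = 0.0422). That SKBR3 call rests on 143 and 226 counts in all and was lost without each of 4 libraries (adjusted p = 0.077 to 0.18: controls 1 and 3, MitoQ 2 and 3). Of the 31-base words of SLC2A3, 29.9% occur in other genes and 3.53% in its named pseudogenes. Those pseudogene rows held 4.76% to 11.4% of the summed counts of SLC2A3 and its pseudogenes in SKBR3.

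Among the hexokinases, HK1, the constitutive enzyme, was not called in either line (log2 fold change 0.09 and -0.06, edgeR adjusted p = 0.0873 and 0.21). HK2, the inducible enzyme bound to mitochondria, was the member that fell most in SKBR3. It was at 237, 246 and 246 CPM in SKBR3 controls and 193, 196 and 203 CPM with MitoQ. All 3 MitoQ libraries were below all controls (-0.30 ± 0.037, SE, edgeR adjusted p = 5.59e-05). In MDA-MB-231 the controls were at 190, 214, 205, 192 and 182 CPM and the MitoQ libraries at 183, 191, 161, 179 and 173 CPM. These groups overlap, the change was -0.15 ± 0.053 (edgeR adjusted p = 0.0221), and the call was lost without control 2 or 3 or MitoQ 3 (0.061 to 0.0728) and with plain library totals. The interaction for HK2 was not called (edgeR adjusted p = 0.283). ADPGK, which phosphorylates glucose with ADP, was at 49.1 ± 0.859 and 49 ± 0.899 CPM in MDA-MB-231 (SD, n = 5 and 5) and was not called in either line.

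Phosphoglucomutases join glycogen and galactose use to glucose 6-phosphate. PGM1 (protein-coding, chr1:63593276-63660245, plus strand, GRCh38, GENCODE 29), the main enzyme of this step in most tissues, was at 134, 129, 134, 115 and 126 CPM in MDA-MB-231 controls and 86.9, 74.4, 92.8, 83.4 and 92.3 CPM with MitoQ. Every MitoQ library was below every control (-0.57 ± 0.06, SE, edgeR adjusted p = 1.33e-07). In SKBR3 PGM1 was at 39.2, 36.4 and 39.3 CPM in controls and 48.8, 49.2 and 50.0 CPM with MitoQ, again without overlap but upward (0.36 ± 0.052, edgeR adjusted p = 0.000199). It was thus higher in MDA-MB-231 than in SKBR3 both without and with MitoQ, while the gap between the lines narrowed. The interaction was 0.98 ± 0.095 (edgeR adjusted p = 2.38e-08). PGM2, which prefers pentose phosphates, went the other way: it was not called in MDA-MB-231 and fell in SKBR3 (-0.18, edgeR adjusted p = 0.0175), with an interaction of -0.25 (0.0136). The SKBR3 call of PGM2 was lost without any of 4 libraries (0.0542 to 0.113: controls 2 and 3, MitoQ 1 and 2). The interaction was lost without SKBR3 control 3 or MitoQ 1 (0.0516 and 0.0541).

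Glucose-6-phosphate isomerase, GPI, makes fructose 6-phosphate and stands where the pathways part. In MDA-MB-231 it was at 535, 548, 531, 496 and 499 CPM in controls and 332, 342, 321, 347 and 362 CPM with MitoQ. The lowest control was well above the highest MitoQ library (-0.62 ± 0.046, SE, edgeR adjusted p = 1.23e-09). SKBR3 levels were 729, 696 and 717 CPM in controls and 625, 623 and 632 CPM with MitoQ, also without overlap but with a smaller change (-0.19 ± 0.036, edgeR adjusted p = 0.00145). The interaction was 0.47 (edgeR adjusted p = 4.55e-06).

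The 3 phosphofructokinase subunits did not move together. PFKL, the liver-type subunit, was at 84.8, 78.6, 75.4, 79.5 and 72.1 CPM in MDA-MB-231 controls and 80.9, 81.3, 85.8, 89.9 and 93.0 CPM with MitoQ. The groups overlap, and the rise (0.14 ± 0.053, SE, edgeR adjusted p = 0.0273) was lost without control 3 or 5 or MitoQ 4 or 5 (0.0715 to 0.0876), without the low-count filter and in a single fit for both lines. In SKBR3 PFKL was at 158, 164 and 187 CPM in controls and 196, 204 and 201 CPM with MitoQ, without overlap (0.24 ± 0.054, edgeR adjusted p = 0.00556). PFKM, the muscle-type subunit, fell in both lines, by 0.39 and 0.21 on the log2 scale (edgeR adjusted p = 2.09e-07 and 0.00308). PFKP, the platelet-type subunit, was at 359, 371, 361, 331 and 318 CPM in MDA-MB-231 controls and 310, 322, 325, 342 and 367 CPM with MitoQ, mostly overlapping and not called (edgeR adjusted p = 0.327). SKBR3 libraries were at 82.0, 81.2 and 90.9 CPM in controls and 93.6, 102 and 105 CPM with MitoQ (0.24 ± 0.054, edgeR adjusted p = 0.00496). The interaction for PFKP was 0.34 (0.00456).

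PFKFB enzymes make and remove fructose 2,6-bisphosphate, the strongest activator of phosphofructokinase. PFKFB4 had one of the largest falls in MDA-MB-231. It was at 45.7, 43.4, 42.9, 41.9 and 42.1 CPM in controls and 25.4, 21.3, 27.0, 25.9 and 23.8 CPM with MitoQ. The groups were far apart, a 1.75-fold fall (log2 -0.81 ± 0.061, SE, edgeR adjusted p = 1.58e-09). UCN2, a gene that overlaps 4.73% of the exonic bases of PFKFB4 on the same strand, rose in these libraries (0.88, edgeR adjusted p = 3.32e-08). In SKBR3 PFKFB4 was at 8.13, 8.66 and 7.33 CPM in controls and 8.91, 7.89 and 6.74 CPM with MitoQ, which overlap (-0.02 ± 0.12, edgeR adjusted p = 0.924). PFKFB3, the form with the highest kinase activity, fell from 84.4 ± 5.71 to 60.8 ± 6.3 CPM in MDA-MB-231 (SD, n = 5 and 5, edgeR adjusted p = 4.59e-06) and was not called in SKBR3. The interaction terms of PFKFB4 and PFKFB3 were 0.83 and 0.59 (edgeR adjusted p = 1.51e-05 and 3.61e-05). PFKFB2, the heart-type form, rose by 0.20 in MDA-MB-231 and fell by 0.21 in SKBR3 on the log2 scale (edgeR adjusted p = 0.00536 and 0.00171).

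Aldolases split fructose 1,6-bisphosphate. ALDOC, the brain-type form, was a minor transcript in MDA-MB-231, at 6.54, 6.65, 6.71, 4.45 and 4.55 CPM in controls and 2.71, 1.73, 2.12, 2.07 and 2.21 CPM with MitoQ. Controls 4 and 5 were lower than the other controls, and all controls were above all MitoQ libraries. The fall of 2.66-fold was the largest of any member (log2 -1.41 ± 0.15, SE, edgeR adjusted p = 2.63e-07). In SKBR3 ALDOC was at 29.7, 29.4 and 28.4 CPM in controls and 30.8, 33.2 and 34.9 CPM with MitoQ. That rise (0.18 ± 0.062, edgeR adjusted p = 0.0435) was lost without any of 5 of the 6 libraries, all but MitoQ 1 (0.066 to 0.163), and the interaction of 1.63 ± 0.17 was called (1.03e-07). ALDOA, the main form in muscle and tumours, fell from 886 ± 59.4 to 660 ± 34.1 CPM in MDA-MB-231 (SD, n = 5 and 5, edgeR adjusted p = 1.05e-06) and was not called in SKBR3 (0.388). ALDOA shares 42.3% of its exonic bases with the same-strand row AC093512.2, which held 1654 to 2746 counts per MDA-MB-231 library and 80 to 187 per SKBR3 library, so its level depends on how reads were split between them.

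Of the 5 enzymes from triose phosphates to 2-phosphoglycerate, 4 fell in MDA-MB-231. TPI1, which interconverts the triose phosphates, fell by 0.51 on the log2 scale and GAPDH, which makes NADH, by 0.22 (edgeR adjusted p = 3.82e-08 and 0.00222). PGK1, the first ATP-forming enzyme, was at 520, 491, 516, 471 and 501 CPM in controls and 289, 258, 312, 300 and 302 CPM with MitoQ. The groups did not overlap, and the fall was 1.71-fold (log2 -0.78 ± 0.051, SE, edgeR adjusted p = 2.18e-10). PGAM1, the phosphoglycerate mutase, was at 696, 659, 690, 612 and 645 CPM in controls and 366, 386, 393, 390 and 402 CPM with MitoQ. This was a 1.7-fold fall, also without overlap (log2 -0.77 ± 0.046, edgeR adjusted p = 4.83e-11). BPGM, which makes 2,3-bisphosphoglycerate, was at 40.3 ± 1.76 and 38.2 ± 1.21 CPM (SD, n = 5 and 5) and was not called in either line.

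In SKBR3 PGK1 was the only one of these enzymes called. It was at 464, 477 and 489 CPM in controls and 426, 442 and 458 CPM with MitoQ, with every MitoQ library below every control (-0.11 ± 0.039, SE, edgeR adjusted p = 0.0473). The call was lost without any of 4 libraries (0.194 to 0.302: controls 2 and 3, MitoQ 1 and 2), and with DESeq2, with either other scaling, without the low-count filter and with 1 fit for the 16 libraries. PGAM1 was at 155, 150 and 154 CPM in controls and 141, 143 and 147 CPM with MitoQ, and was not called (edgeR adjusted p = 0.0776). The interaction was called for PGK1 (0.71), PGAM1 (0.72) and TPI1 (0.50), with edgeR adjusted p = 1.72e-07, 1.27e-08 and 1.5e-05, and not for GAPDH (0.206). PGAM1 and GAPDH share 34.9% and 20.1% of their 31-base words with other genes. The named pseudogene rows held at most 1.18% of the summed counts of PGAM1 and its pseudogenes in MDA-MB-231, and 3.33% in SKBR3. For GAPDH they held at most 0.208% of such a sum.

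Enolases make phosphoenolpyruvate. ENO1, the ubiquitous form, fell slightly in MDA-MB-231, from 1862 ± 85.2 to 1691 ± 84.8 CPM (SD, n = 5 and 5, edgeR adjusted p = 0.0188), a call lost without control 1 or 3 or MitoQ 1 (0.051 to 0.0525) and with plain library totals. ENO3 (chr17:4948092-4957131, plus strand), the muscle-type form, was at 6.03, 6.41, 6.92, 7.38 and 5.92 CPM in MDA-MB-231 controls and 13.1, 13.1, 11.6, 12.3 and 13.7 CPM with MitoQ. The groups were well separated, and this 1.95-fold rise was the largest among the 30 members (log2 0.96 ± 0.083, SE, edgeR adjusted p = 1.04e-08). In SKBR3 it was at 7.59, 7.24 and 5.89 CPM in controls and 7.61, 7.21 and 6.80 CPM with MitoQ, overlapping and not called (edgeR adjusted p = 0.706; interaction -0.85, 6.51e-05). ENO2 (chr12:6913745-6923698, plus strand), the neuronal form, was at 70.2, 68.1, 67.6, 64.0 and 62.8 CPM in MDA-MB-231 controls and 48.3, 51.1, 49.3, 50.1 and 52.0 CPM with MitoQ, without overlap (-0.41 ± 0.046, edgeR adjusted p = 4.24e-07). SKBR3 held 5, 1 and 8 ENO2 counts in controls and 9, 12 and 5 with MitoQ. The ENO2 interaction (1.18 ± 0.38, edgeR adjusted p = 0.0333) rests on these few counts. It was lost without SKBR3 control 2 or MitoQ 1 or 2 (0.0882 to 0.146) and with plain library totals. PKM, pyruvate kinase, fell by 0.21 in MDA-MB-231 (edgeR adjusted p = 0.00162) and was not called in SKBR3 (0.121).

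**Figure D2:**
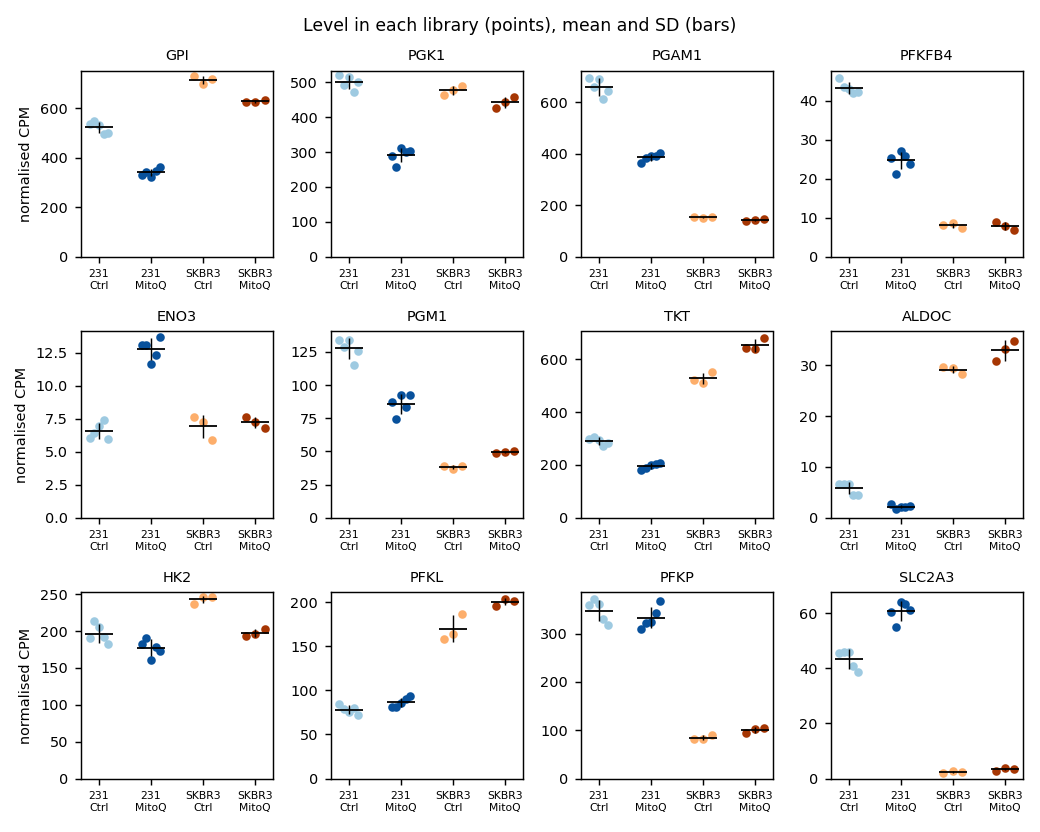
Normalised CPM (y axes from 0) of 12 members in each library (points) of the 4 groups (x axes; 231 is MDA-MB-231), with bars for the mean and SD of 5, 5, 3 and 3 libraries. PGK1, PGAM1, GPI and PFKFB4 lie lower in all MDA-MB-231 MitoQ libraries than in any MDA-MB-231 control, PGM1 and TKT move in opposite directions in the 2 lines, and PFKP overlaps in MDA-MB-231.

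In the pentose phosphate pathway, the oxidative member was not called and each non-oxidative one was called in MDA-MB-231. PGD, the oxidative enzyme that makes NADPH from 6-phosphogluconate, was at 155 ± 8.73 and 151 ± 6.89 CPM in MDA-MB-231 (SD, n = 5 and 5) and 157 ± 2.6 and 158 ± 5.9 CPM in SKBR3 (SD, n = 3 and 3), and was called in none of the comparisons. Of the 4 non-oxidative genes, 3 fell and 1 rose in MDA-MB-231. TKT, transketolase, was at 299, 305, 295, 270 and 283 CPM in controls and 182, 190, 198, 204 and 208 CPM with MitoQ. The groups did not overlap (-0.57 ± 0.048, SE, edgeR adjusted p = 8.04e-09). In SKBR3 TKT was at 523, 509 and 552 CPM in controls and 642, 638 and 681 CPM with MitoQ, a rise without overlap (0.31 ± 0.042, edgeR adjusted p = 0.000121; interaction 0.91 ± 0.074, 1.18e-09). The isomerase RPIA and the epimerase RPE, which interconvert pentose phosphates, each fell by 0.42 on the log2 scale in MDA-MB-231 (edgeR adjusted p = 6.48e-06 and 2.38e-05) and were not called in SKBR3. RPE overlaps KANSL1L on the opposite strand over 23.8% of its exonic bases, and the strand setting of the counting is not given in the sources used here. TALDO1, transaldolase, rose in MDA-MB-231 from 116 ± 5.33 to 135 ± 10.7 CPM (SD, n = 5 and 5, edgeR adjusted p = 0.00159) and was not called in SKBR3. The row of PGLS, the lactonase between the oxidative enzymes, rose from 20.6 ± 2.97 to 40.9 ± 6.55 CPM in MDA-MB-231 (edgeR adjusted p = 1e-05) and was not called in SKBR3 (0.473; interaction -0.82, 0.00645).

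Where a step has several isoforms among the members, the share of each in the summed counts per exonic kilobase of that step was compared between control and MitoQ, with 13 shares in each line and an exact two-sided permutation test over libraries. In MDA-MB-231, 10 of 13 shares differed at the smallest p that 5 against 5 allows (0.00794, adjusted over the 13 to 0.0103). Shares within a step depend on each other, so the 13 are not independent. Such shares were not computed for other genes, so this count has no background beside it. PGM1 went from 64.4% ± 1.07 to 53% ± 3.91 of the phosphoglucomutase counts (SD, n = 5 and 5, exact permutation test). SLC2A1 went from 91.4% ± 0.333 to 84.8% ± 1 of the 2 transporters, with GLUT3 transcripts making up the rest. Among PFKFB transcripts the share of PFKFB2 rose from 11.1% to 17.7% and that of PFKFB4 fell from 30.2% to 23.9%, while PFKFB3 stayed the main form at 58.7% and 58.5% (exact permutation adjusted p = 0.889). PFKM fell from 13.7% to 11.1% and PFKL rose from 9.36% to 10.9% of phosphofructokinase counts. HK1 rose from 50.4% to 54.6% of the hexokinases. ENO3 rose from 0.412% to 0.888% and ENO2 fell from 4.2% to 3.5% of the enolases, and ALDOA rose from 99.1% to 99.6% of the aldolases.

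In SKBR3 no share could pass, since 3 against 3 libraries cannot give an exact p below 0.1 (0.144 adjusted over 13). The groups did not overlap for PGM1, which went from 41.8% ± 0.85 to 51.2% ± 0.788 (SD, n = 3 and 3), the opposite direction to MDA-MB-231. They did not overlap for HK1 (64.3% to 68%) and PFKM (23.7% to 18.6%), which went the same way as in MDA-MB-231, or for PFKFB2 (49.4% to 44.8%), which went the other way. The groups also did not overlap for PFKFB3 (44.1% to 48.6%), PFKP (36.6% to 39.1%), PFKL (39.7% to 42.4%) and SLC2A1 (99.5% to 99.2%). Nor did they for ALDOA (97.6% to 97.2%), which had risen in MDA-MB-231. They overlapped for PFKFB4, ENO1, ENO2 and ENO3. How often shares of other genes separate was not computed.

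**Figure D3:**
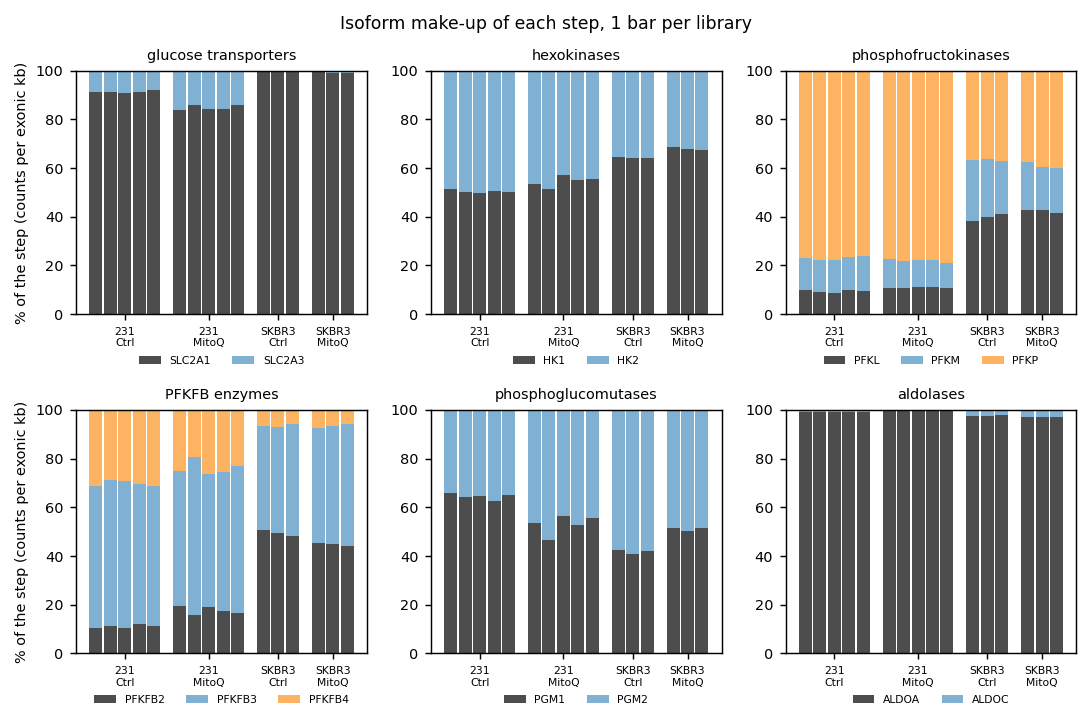
Share of each isoform (y axis, % of the summed counts per exonic kilobase of its step) in every library (1 bar each) of the 4 groups (x axis; 231 is MDA-MB-231), for 6 steps. PGM1 takes 62.8% to 65.7% of its step in MDA-MB-231 controls and 46.6% to 56.4% with MitoQ, and 40.8% to 42.3% in SKBR3 controls and 50.3% to 51.7% with MitoQ.

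Without MitoQ, the control lines were compared for the same genes. Of 30 members, 10 were called higher and 13 lower in SKBR3 than in MDA-MB-231 controls (edgeR), where 42% of 16398 genes were called higher and 44.4% lower, so members were not called more often than genes in general. Line and passage cannot be told apart here. Per exonic kilobase, GAPDH was the highest member in both lines, at 951 ± 47.7 CPM per kilobase in MDA-MB-231 (SD, n = 5) and 976 ± 47.7 in SKBR3 (SD, n = 3), on the scale of the 16 libraries. In MDA-MB-231 it was followed by ENO1 (355 ± 14.2), PKM (316 ± 12.9) and PGAM1 (259 ± 12.5). In SKBR3 it was followed by ALDOA (407 ± 17) and ENO1 (330 ± 11), and PKM (109 ± 2.66) and PGAM1 (59.3 ± 1.57) were lower. PKM was 2.87-fold and PGAM1 4.3-fold lower in SKBR3 than in MDA-MB-231 (edgeR adjusted p = 3.92e-18 and 2.09e-20).

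The isoforms of several steps were distributed differently between the lines. SLC2A3 was 18.4-fold lower in SKBR3 (log2 -4.20 ± 0.1, SE, edgeR adjusted p = 8.29e-20), while SLC2A1 was not called (0.759). PFKP was 4.09-fold lower and PFKL 2.18-fold higher in SKBR3, so that PFKP made up 77% of phosphofructokinase counts per kilobase in MDA-MB-231 controls and 36.6% in SKBR3 controls. PFKFB4 was 5.42-fold lower (log2 -2.44 ± 0.07, edgeR adjusted p = 1.9e-18) and PFKFB2 3.89-fold higher. ALDOC was 5.03-fold higher (log2 2.33 ± 0.11, edgeR adjusted p = 2.18e-13). ENO2 was near the floor in SKBR3: 14 counts over the 3 controls against 8399 over the 5 MDA-MB-231 controls, a 292-fold lower level with a 95% interval of 174 to 534 that covers counting error only (edgeR adjusted p = 1.27e-22). PGM1 was 3.31-fold, BPGM 4.06-fold and RPIA 2.65-fold lower in SKBR3. TKT was 1.82-fold and HK1 2.19-fold higher. ADPGK, GAPDH, PGK1, ENO1, ENO3 and PGD, with SLC2A1, were the members not called.

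**Figure D4:**
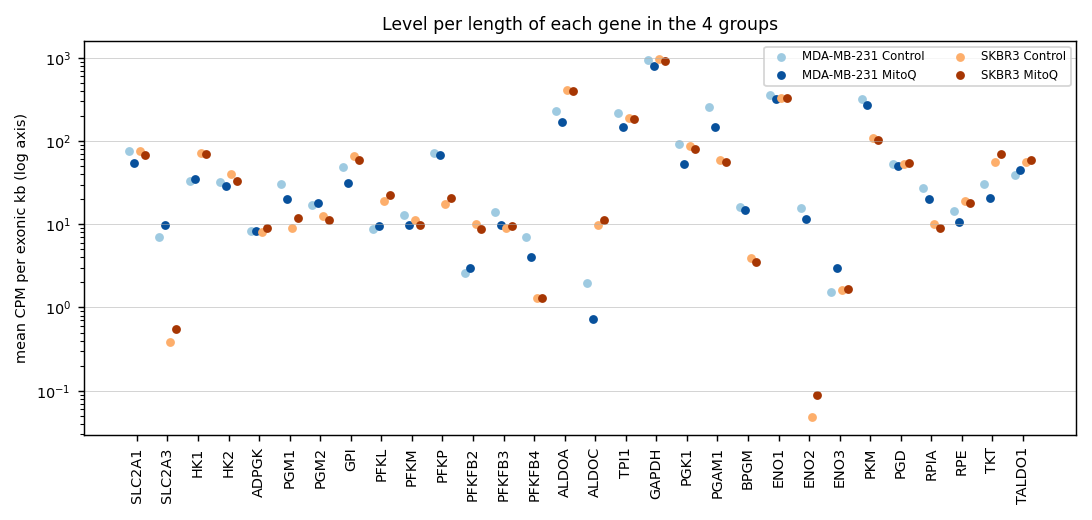
Mean level of each member per exonic kilobase (y axis, CPM per kilobase on the scale of the 16 libraries, log axis) in the 4 groups (colours), members ordered by step on the x axis. GAPDH is the highest in each group, and SLC2A3 and ENO2 are the members with the widest gap between the lines.

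Genes next to the pathway came from 5 lists with 74 genes in all: other isoforms of the same steps, lactate and pyruvate handling, gluconeogenesis, branches from the pathway and its regulators. In MDA-MB-231, 17 of the 57 tested were called higher and 23 lower (edgeR), with a median log2 fold change of -0.06. In SKBR3, 12 of 59 were called higher and 10 lower, with a median of -0.01. The interaction was called for 38 of 61, of which 22 were above 0. Between control lines 25 of 61 were called higher and 28 lower in SKBR3. The shares of all genes called, higher and lower, were 29.9% and 27.6% in MDA-MB-231, 13.8% and 14.1% in SKBR3, 19.1% and 14.9% for the interaction and 42% and 44.4% between control lines. The counts called higher in MDA-MB-231 and those between control lines were close to these shares, which are also the background for each list.

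Of the lactate and pyruvate genes, 7 of 12 fell and 1 rose in MDA-MB-231, and 6 of 13 fell and 2 rose in SKBR3. LDHA, the lactate dehydrogenase that turns pyruvate into lactate, fell 2.31-fold in MDA-MB-231, from 1481 ± 44.1 to 642 ± 18.9 CPM (SD, n = 5 and 5, edgeR adjusted p = 2.23e-14), and 1.17-fold in SKBR3 (0.00104). The interaction was 1.02 (edgeR adjusted p = 1.11e-11). PDK1, a kinase that inactivates pyruvate dehydrogenase, fell 2.58-fold in MDA-MB-231 and 1.17-fold in SKBR3 (edgeR adjusted p = 3.17e-12 and 0.0172). The SKBR3 call of PDK1 was lost without control 2 or MitoQ 1 or 3 (0.0667 to 0.112). SLC16A1, the lactate and pyruvate transporter MCT1, rose against this direction, from 1.13 ± 0.321 to 14.7 ± 2.37 CPM in MDA-MB-231 (SD, n = 5 and 5, 13-fold, edgeR adjusted p = 5.59e-13). In SKBR3 it was at 9.34 ± 0.527 and 8.37 ± 0.784 CPM (SD, n = 3 and 3) and was not called (interaction -3.80, edgeR adjusted p = 1.6e-12).

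Among the other isoforms, 3 of 9 rose and 4 fell in MDA-MB-231, and 2 of 10 rose in SKBR3. HKDC1, a hexokinase-like enzyme, rose 7.51-fold in MDA-MB-231, from 1.63 ± 0.262 to 12.2 ± 0.395 CPM (SD, n = 5 and 5, edgeR adjusted p = 4.09e-14), and held 5 and 4 counts in all in SKBR3 control and MitoQ libraries. H6PD, the hexose-6-phosphate dehydrogenase of the endoplasmic reticulum, rose 2.25-fold in MDA-MB-231 and 1.35-fold in SKBR3 (edgeR adjusted p = 2.56e-11 and 0.000279). SLC2A12, the transporter GLUT12, fell 2.34-fold in MDA-MB-231 (edgeR adjusted p = 2.5e-08) and was not called in SKBR3.

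Of the gluconeogenesis genes 2 of 4 rose in MDA-MB-231 and 1 of 4 in SKBR3. PCK2, the mitochondrial phosphoenolpyruvate carboxykinase, rose 5.45-fold in MDA-MB-231, from 32.9 ± 2.53 to 179 ± 13.1 CPM (SD, n = 5 and 5), and 2.29-fold in SKBR3, from 24.9 ± 1.54 to 57.3 ± 3.56 CPM (SD, n = 3 and 3). The edgeR adjusted p values were 2.08e-16 and 7e-08. Of the branch genes, 4 of 20 rose and 10 fell in MDA-MB-231, and 4 of 20 rose and 3 fell in SKBR3, the latter near the 13.8% and 14.1% of all genes. GFPT1, which diverts fructose 6-phosphate to hexosamines, rose 2.74-fold in MDA-MB-231 and fell 1.14-fold in SKBR3 (edgeR adjusted p = 1.62e-12 and 0.00209; interaction -1.60, 1.16e-12), and a single fit for both lines ended the SKBR3 call. PYGB, the brain-type glycogen phosphorylase, rose 2.29-fold in MDA-MB-231 (edgeR adjusted p = 2.23e-12). Its SKBR3 call (1.1-fold, edgeR adjusted p = 0.0467) was lost without any of 5 of the 6 libraries, all but control 3 (0.0516 to 0.166).

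Of 12 regulators, 7 rose and 2 fell in MDA-MB-231, and 3 rose and 1 fell in SKBR3, against 29.9% and 27.6% of all genes in MDA-MB-231 and 13.8% and 14.1% in SKBR3. TXNIP, which restrains glucose uptake and is induced by glucose 6-phosphate through MondoA, rose 5.26-fold in MDA-MB-231, from 90.8 ± 3.23 to 478 ± 6.36 CPM (SD, n = 5 and 5, edgeR adjusted p = 1.29e-18). In SKBR3 it was at 57.8 ± 6.28 and 57.3 ± 6.06 CPM (SD, n = 3 and 3; interaction -2.35, edgeR adjusted p = 9.55e-16). ARRDC4, its relative with the same kind of control, rose 3.69-fold in MDA-MB-231 (edgeR adjusted p = 1.72e-09) and was not called in SKBR3. HIF1A, the oxygen-regulated HIF subunit, whose control is mostly at the protein, was not called in MDA-MB-231 (-0.12, edgeR adjusted p = 0.0863) and fell by 0.13 on the log2 scale in SKBR3 (0.0176). That call was lost without any of 4 libraries (0.0511 to 0.139: controls 2 and 3, MitoQ 1 and 2). EPAS1, which encodes HIF-2 alpha, rose 3.56-fold in MDA-MB-231 (edgeR adjusted p = 5.22e-16), while EGLN3, an oxygen-sensing hydroxylase that HIF induces, fell 3.68-fold (4.35e-11). Neither was called in SKBR3. MYC rose 1.65-fold in MDA-MB-231 (edgeR adjusted p = 1.83e-09). Its rise in SKBR3 (1.09-fold, edgeR adjusted p = 0.0492) was lost without control 1 or 2 or MitoQ 2 or 3 (0.133 to 0.168).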

How the data were processed

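RNA was measured by sequencing in 16 libraries of 2 lines. Per the submitters' processing notes, reads were quantified with Salmon on GRCh38 and edgeR was used; no source used here gives versions, library kit or strand. The authors deposited 1 table of estimated counts per gene, in whole numbers as deposited, with no library normalisation. Of its 35106 rows, 8866 held no count. Identifiers were matched to GENCODE 29 for coordinates, exonic lengths and overlaps.

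Each comparison was fitted with edgeR 4.0.16 in R 4.3.3: low-count filter (filterByExpr), TMM factors, robust quasi-likelihood F test, two-sided, Benjamini-Hochberg adjustment over all genes tested, threshold 0.05. Treatment was fitted within each line, the lines on the controls, and the interaction on all libraries, without a replicate block. Isoform shares were compared by exact permutation. Uniqueness of a gene was the share of its 31-base words found in transcripts of other genes, and pseudogene rows were those named as the gene symbol followed by P and digits. Alternatives were DESeq2 1.42.0, limma 3.58.1 voom, other scalings and filters, a test against a 1.2-fold change, a replicate block, a single fit and leaving out each library. The scripts were tested on simulated counts in which 200 genes were changed by known folds. Changes of 1.25-fold were recovered for 49.3% of genes in MDA-MB-231, 43.3% in SKBR3, 16.4% in the interaction and 47.8% between control lines. Unchanged genes made up 2.76%, 11.1%, 4.67% and 8.0% of the calls, in the same order. The simulation changed far fewer genes than were called in the data, for example 29.9% higher and 27.6% lower in MDA-MB-231. These rates therefore need not hold for the fits reported here.

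The members, lists and tests were chosen with earlier results of these data known. Values in every library are given for called members with a mean of at least 5 CPM among the 6 largest changes in MDA-MB-231 and the 5 largest in SKBR3, and for the 4 largest called interactions and line differences. Other pathway genes are named when called with at least a 2-fold change and 5 CPM, with LDHA, TXNIP, HIF1A and MYC. Proteins are not shown.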

Additional observations from a re-analysis of the deposited data

Results flagged for a closer look

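RPIA in MDA-MB-231 was flagged because MitoQ library 1, at 33.1 CPM, lay apart from the other 4 MitoQ libraries, at 37.7 to 39.3 CPM. Of 62 groups of libraries examined this way it was the only one flagged, and chance flags about 5% of groups. These did not cover every member in all 4 groups. Its fall with MitoQ stayed called without that library.

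The effect of MitoQ differed between the lines by the edgeR interaction term (SKBR3 minus MDA-MB-231, log2 scale) for 18 members and PGLS. Above 0 were SLC2A1 (0.31), PGM1 (0.98), GPI (0.47), PFKM (0.23), PFKP (0.34), PFKFB3 (0.59), PFKFB4 (0.83), ALDOA (0.41), ALDOC (1.63), TPI1 (0.50), PGK1 (0.71), PGAM1 (0.72), ENO2 (1.18), RPE (0.39) and TKT (0.91). Below 0 were PGM2 (-0.25), PFKFB2 (-0.37), ENO3 (-0.85) and PGLS (-0.82).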

How the results depend on the processing

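Of 78 called values of members over the 4 edgeR comparisons, none changed direction in any alternative, and 10 were lost without at least 1 library, as named beside each. Of the 41 not called, 14 changed sign in some alternative. Against a 1.2-fold change, 0 members and 3 other pathway genes were called in SKBR3 (13 and 22 against no change), and 10 members and 25 other genes in the interaction (18 and 38). A single fit over all libraries called 14 other genes in SKBR3. Without SKBR3 MitoQ 2, 8 members were called in SKBR3. Leaving out 1 library at a time gave 21 to 25 members called in MDA-MB-231, 8 to 12 in SKBR3, 17 to 21 in the interaction and 23 to 24 between control lines. For the other genes this gave 39 to 41, 15 to 22, 34 to 39 and 53 to 54, and 10 to 11 isoform shares in MDA-MB-231.

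Libraries with the same replicate number showed correlations near 0 in their deviations (-0.089 to 0.005 in MDA-MB-231 and -0.007 to 0.076 in SKBR3). The numbers were therefore not taken to pair the libraries. SKBR3 controls 1 and 3 still correlated most with the MitoQ library of their own number (0.039 and 0.076), and no MDA-MB-231 control did. With a replicate block 22, 13, 18 and 24 members were called in the same 4 comparisons. The MDA-MB-231 calls lost under it were ENO1 (-0.14, edgeR adjusted p = 0.0575) and PFKL (0.14, 0.0621). The block gave 0 isoform shares called in MDA-MB-231, where 5 pairs cannot reach the threshold by construction (adjusted p = 0.0739).

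The values that changed sign were all near 0 and the cause was not tested. In MDA-MB-231, ADPGK was 0.057 with plain totals, 0.0089 with voom, 0.0019 with a 1 CPM filter and -0.015 to 0.012 without 1 library, and PGD was 0.021 with plain totals. In SKBR3, TXNIP was -0.0023 with DESeq2, -0.0017 without mitochondrial genes, -0.011 with the block and -0.078 to 0.10 without 1 library, and PFKFB4 was 0.0028 in the single fit and -0.097 to 0.069 without 1 library. Leaving out 1 library gave -0.18 to 0.0081 for ARRDC4, -0.024 to 0.16 for ENO3 and -0.024 to 0.045 for PGD. In the interaction, plain totals gave -0.032 for SLC2A3, -0.0032 for PGD and -0.057 for HIF1A, and leaving out 1 library gave -0.036 to 0.15 for SLC2A3, -0.0038 to 0.096 for HIF1A and -0.14 to 0.0076 for BPGM. Between control lines, SLC2A1 was -0.0071 with voom, -0.046 without the filter, -0.031 with the block, -0.0031 in the single fit and -0.033 to 0.064 without 1 library. Without the filter GAPDH was -0.0051 and PGD -0.039, and with the block PGD was -0.029 and PGLS -0.013. A 1 CPM filter gave 0.054 for ADPGK, 0.015 for PGK1 and 0.029 for SLC2A12, and ADPGK was 0.0067 without mitochondrial genes. Leaving out 1 library gave -0.052 to 0.0096 for ADPGK, -0.074 to 0.0023 for SLC2A12, -0.095 to 0.21 for PGLS and -0.013 to 0.18 for ENO3. With lengths of the longest transcript, the MDA-MB-231 share changes were 0.396 points for PFKFB3 and -0.121 for ENO1. Leaving out 1 library gave -1.83 to 0.678 points for PFKFB3 there, and -0.31 to 0.619 for PFKFB4 and -0.0037 to 0.0596 for ENO3 in SKBR3.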
